A study of Homo sapiens with 12 samples.

Results

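The genes described here make, break down and sense prostaglandins, above all prostaglandin E2, in HK2 cells, an immortalised human proximal tubule epithelial line. They were chosen by symbol from a list of 9, namely PLA2G4A, PTGS1, PTGS2, PTGES, PTGES2, PTGES3, HPGD, PTGER2 and PTGER4, out of 58278 genes in the expression tables, and all 9 were among the 24342 genes with enough counts to be tested. RNA was measured in 12 libraries from 6 groups of 2 biological replicates. Ctrl cells were untreated, and TN cells received the inflammatory cytokine TNF-α at 5 ng/mL for 3 h. PRTN and BUTN cells were given the short-chain fatty acids (SCFAs) propionate at 15 mM or butyrate at 3 mM for 24 h and then the same TNF-α stimulus, while in TNPR and TNBU cells the same acids followed TNF-α for 24 h. No group received an SCFA without TNF-α, and all cells, Ctrl included, grew in medium containing hydrocortisone, a glucocorticoid. The TNPR and TNBU cells were also collected later after TNF-α than the TN cells, so the SCFA and the added time cannot be told apart in those groups. All libraries came from 1 cell line.

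Prostaglandins are lipid signals made from arachidonic acid. Cytosolic phospholipase A2 (PLA2G4A) frees arachidonic acid from membranes, the cyclooxygenases COX-1 (PTGS1) and COX-2 (PTGS2) convert it to prostaglandin H2, and terminal synthases such as PTGES turn that into prostaglandin E2. Prostaglandin E2 acts on the receptors EP2 (PTGER2) and EP4 (PTGER4), which raise cyclic AMP, and is inactivated by 15-hydroxyprostaglandin dehydrogenase (HPGD). COX-1 is usually described as constitutive and COX-2 as induced by cytokines. In the kidney these lipids take part in the control of blood flow and of salt and water handling.

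Total expected counts ranged from 27269986 to 33851130 per library, and levels are given as CPM, counts per 1000000 after TMM scaling. A total of 3 counts corresponded to 0.0867 to 0.112 CPM, which limits what could be seen for PTGS2, PLA2G4A and PTGER4. A gene was called where it changed over 1.5-fold with an adjusted p under 0.05 (limma-voom, Benjamini-Hochberg over the tested genes). NFKBIA, a TNF-α response gene, went from 190 CPM in Ctrl to 313 CPM in TN. Epithelial keratins were abundant in untreated cells (KRT8, 783 CPM), as was the tubule transcription factor PAX8 at 364 CPM, whereas the proximal tubule markers LRP2 and SLC34A1 were at 0 and 0.0702 CPM and the epithelial cadherin CDH1 at 0.267 CPM. Markers of other cell types moved with the SCFAs and were low, except for the fibroblast genes COL1A1 and LUM. The 8 macrophage markers summed to 1.22 to 1.58 CPM in the Ctrl and TN libraries and to 3.70 to 7.68 CPM in the SCFA libraries, and the 6 lymphocyte markers to at most 0.0359 and 0.448 CPM, with PTPRC at or under 0.0905 CPM in every group. The highest macrophage marker was CD14, at 0.914 and 0.765 CPM in Ctrl and TN and 2.38 to 3.15 CPM in the SCFA groups. The 6 fibroblast markers summed to 52.6 to 59.6 CPM in the Ctrl and TN libraries and to 204 to 255 CPM in the SCFA libraries. Most of that was COL1A1, at 48.3 and 41.4 CPM in Ctrl and TN and 161 to 196 CPM in the SCFA groups. LUM went from 6.15 and 8.03 CPM to between 45 and 47.1 CPM. In the SCFA groups COL1A2 stayed at or under 0.421 CPM, and DCN was lower than in Ctrl and TN. The 4 platelet markers summed to 0.179 to 0.893 CPM in Ctrl and TN and to 3.53 to 5.94 CPM with SCFAs, with GP9 at 0, and the 5 endothelial markers to 0.143 to 0.287 CPM and 2.29 to 3.87 CPM. Most of the platelet sum was ITGA2B, at 0.876 and 0.425 CPM in Ctrl and TN and 3.43 to 5.08 CPM in the SCFA groups. The 6 epithelial markers also moved with the SCFAs, from 1211 to 1314 CPM summed in Ctrl and TN libraries to 1820 to 2416 CPM, while EPCAM among them went the other way, from 56.1 and 57.1 CPM in Ctrl and TN to between 15.3 and 22.1 CPM. The 8 tubule markers summed to 710 to 763 CPM in the Ctrl and TN libraries and to 281 to 319 CPM with SCFAs. The part of these shifts in the results below was not tested.

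The DNA just before the start of 3 of these genes is shown because the cyclooxygenase genes differed widely in level, while PTGS1 and PTGER4 rose together. Against Ctrl, PTGS2 too was called up in every SCFA group. HPGD also rose with PTGS1 and followed it more closely than PTGER4 did. The HPGD window is not printed because it lies wholly within annotated untranslated sequence of that gene. Each line gives the 250 bases before the RefSeq start (GRCh38), read 5′ to 3′ on the gene's own strand. Capitals mark matches on either strand to 3 motifs. The GC box was searched as GGGCGG. The TATA box was searched as TATAAA. The half-site of the cyclic AMP response element was searched as TGACG. In the windows shown, no match overlapped another.
PTGS1, chr9:122370283-122370532, plus strand: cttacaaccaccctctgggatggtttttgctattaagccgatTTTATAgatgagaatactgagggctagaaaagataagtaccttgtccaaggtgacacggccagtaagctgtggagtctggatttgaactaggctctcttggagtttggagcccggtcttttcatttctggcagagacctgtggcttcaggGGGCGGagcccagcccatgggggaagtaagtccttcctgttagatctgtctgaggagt
PTGS2, chr1:186680424-186680673, minus strand: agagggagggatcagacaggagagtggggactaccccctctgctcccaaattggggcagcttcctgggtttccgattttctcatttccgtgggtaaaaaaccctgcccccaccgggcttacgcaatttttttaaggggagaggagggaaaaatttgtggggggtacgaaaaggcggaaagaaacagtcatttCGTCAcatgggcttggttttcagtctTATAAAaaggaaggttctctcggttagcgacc
PTGER4, chr5:40679665-40679914, plus strand: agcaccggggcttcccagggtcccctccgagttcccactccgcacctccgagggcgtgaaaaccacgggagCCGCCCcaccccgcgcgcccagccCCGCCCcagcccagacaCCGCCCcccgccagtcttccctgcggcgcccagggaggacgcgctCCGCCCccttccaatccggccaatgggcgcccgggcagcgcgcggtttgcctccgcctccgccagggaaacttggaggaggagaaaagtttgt
The PTGS2 window held a TATA box 32 bases and a half-site 58 bases before the start, and no GC box. The PTGS1 window, which lies 491 bases from the MANE Select start of that gene, held a GC box at 58 bases and a TATA box match on the opposite strand at 208 bases. PTGER4 held 4 GC boxes and neither of the other motifs, while the PLA2G4A window held no match to any of the 3. GC boxes also lay in windows that are not printed, including those of genes that did not rise against TN. Nearest the MANE Select start, PTGES3 held 4, PTGES 2, PTGER2 2, PTGES2 1 and HPGD 1. PTGES3 and PTGER2 also held 1 half-site each. Among all 35116 RefSeq promoter windows of this length, 42.6% held a GC box, 10.7% a TATA box and 21.2% the half-site. These matches describe letters and were not tested as binding sites.

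PTGS1, the gene of COX-1, showed the clearest change. It lies at chr9:122370530-122395703 on the plus strand (GENCODE v44, GRCh38) and is listed as ENSG00000095303.14. The Ctrl pair of libraries held 238 and 196 counts and the TN pair 192 and 168, whereas the PRTN pair held 3182 and 3020, the BUTN pair 2843 and 3042, the TNPR pair 2879 and 2957 and the TNBU pair 2524 and 2760. Every SCFA library lay more than an order of magnitude above every other library, and the Ctrl and TN libraries overlapped. In CPM the Ctrl mean was 7.60 ± 0.810 and the TN mean 6.59 ± 0.790, against a PRTN mean of 92.0 ± 0.181, a BUTN mean of 88.4 ± 0.735, a TNPR mean of 89.9 ± 6.58 and a TNBU mean of 90.0 ± 2.25 (SD, n = 2 each). Relative to TN, PTGS1 rose 14.0-fold with PRTN (limma log2 3.81, SE 0.11, adjusted p = 2.38e-10), 13.4-fold with BUTN and 13.7-fold with each of TNPR and TNBU. TNF-α alone gave a log2 change of -0.21 (SE 0.14, limma adjusted p = 0.502). The 4 rises lay within 3.75 to 3.81 on the log2 scale, and the SCFA groups are compared with one another below.

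PTGS2, the gene of COX-2, was barely detectable. It lies at chr1:186671791-186680922 on the minus strand (ENSG00000073756.11). The Ctrl pair held 0 and 1 counts, the TN pair 6 and 4, the PRTN pair 16 and 14, the BUTN pair 14 and 22, the TNPR pair 14 and 7 and the TNBU pair 13 and 8. The TN libraries were above both Ctrl libraries, and every SCFA library held more counts than every TN library. The 10 counts in TN against 1 in Ctrl gave a ratio of 10.4 after scaling, with a 95% exact binomial interval from 1.48 to 452 that covers counting error only. The fitted change was 2.70 on the log2 scale (SE 0.84) and did not pass the test (limma adjusted p = 0.111). Against TN, PTGS2 was called up in BUTN alone, at 1.47 (SE 0.51, limma adjusted p = 0.0273). That call was lost without BUTN replicate 2 (adjusted p = 0.124), without TN replicate 1 (adjusted p = 0.0727), without TN replicate 2 (adjusted p = 0.166), with DESeq2 (adjusted p = 0.155) and with no filter on low counts (adjusted p = 0.0526). The values in PRTN, TNPR and TNBU were 1.22, 0.72 and 0.88, with limma adjusted p of 0.0629, 0.288 and 0.19. PRTN was called when only the PRTN and TN libraries were fitted (limma adjusted p = 0.0487) and with library size scaling (limma adjusted p = 0.0384). Whether the response differed between butyrate and propionate was tested directly, and PRTN minus BUTN was -0.25 (95% interval -1.10 to 0.60). Against Ctrl, PTGS2 was called up in all 4 SCFA groups, at 3.92, 4.17, 3.41 and 3.58 for PRTN, BUTN, TNPR and TNBU. The fitted size depends on the single Ctrl count. In PRTN it was 3.09 without Ctrl replicate 1 and 4.74 without Ctrl replicate 2, with shifts of like size in the other groups, and in TNPR the call was lost without Ctrl replicate 1 (limma adjusted p = 0.0555). The antisense transcript PACERR, next to PTGS2 on the opposite strand, had at most 1 count in any library.

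Per kilobase of exon the cyclooxygenase mRNA of these cells was almost wholly PTGS1. The ratio of PTGS1 to PTGS2 in CPM per kilobase was 34.0 after TNF-α alone, and with an SCFA it was 196 (PRTN), 156 (BUTN), 267 (TNPR) and 237 (TNBU). In Ctrl it was 402, which rests on 1 PTGS2 count. The lowest ratio was in TN, where PTGS2 had 10 counts and PTGS1 was at its lowest level.

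**Figure D1:**
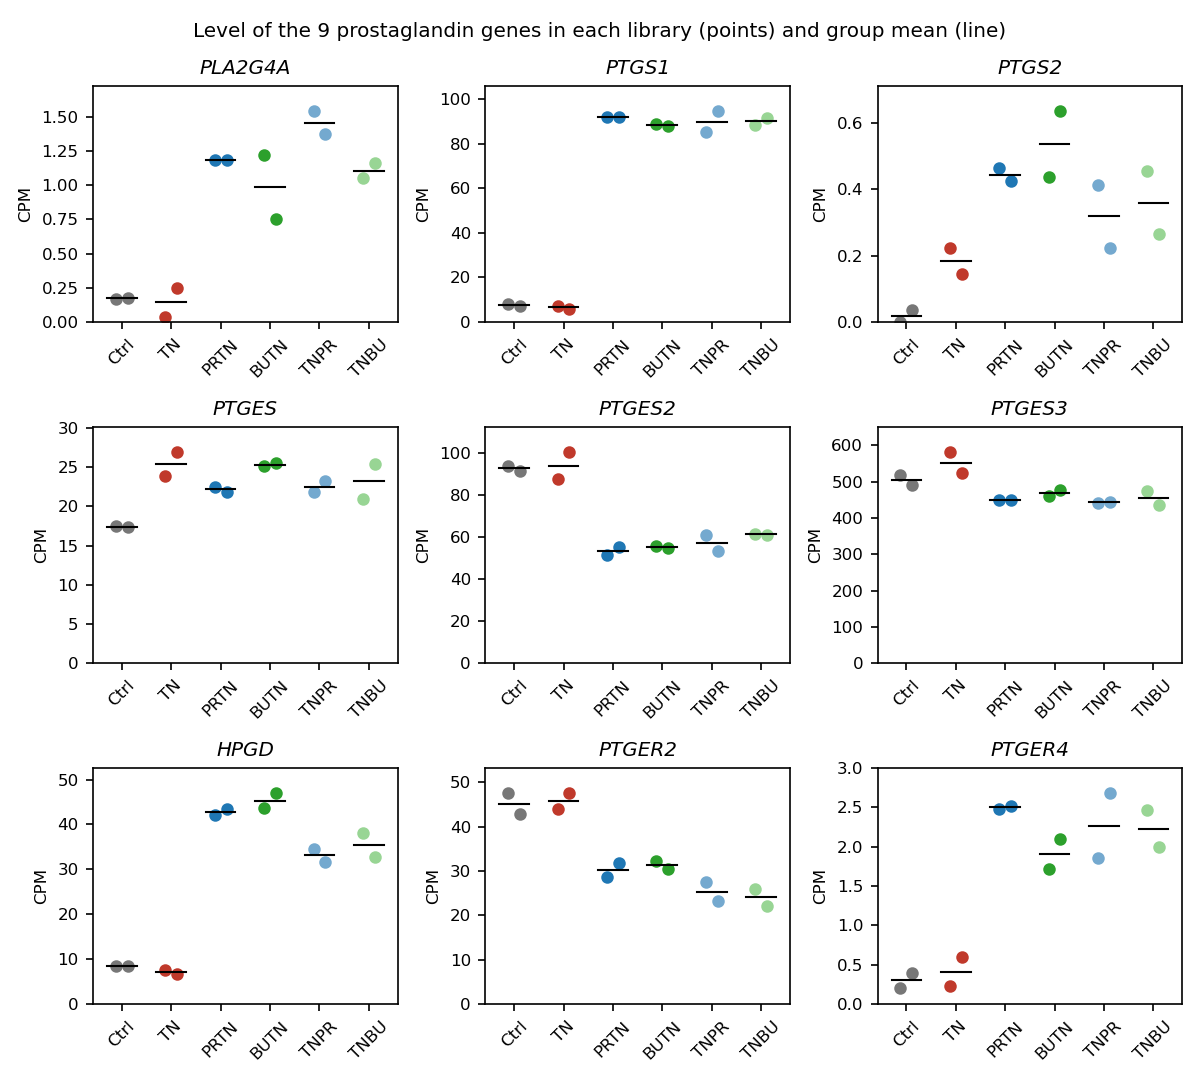
CPM of each of the 9 genes in the 12 libraries, with 1 panel per gene and the groups on the horizontal axis. Points are libraries, the black line is the group mean, and each vertical axis starts at 0. PTGS1, HPGD, PLA2G4A and PTGER4 are higher in all 8 SCFA libraries than in the Ctrl and TN libraries, PTGES2, PTGES3 and PTGER2 are lower, and PTGES is lowest in Ctrl, at 17.4 CPM. PTGS2 is higher too, though the lower TNPR library, at 0.224 CPM, barely exceeds the higher TN library, at 0.223 CPM.

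PLA2G4A, which supplies the arachidonic acid, rose in every SCFA group from very few counts. The gene lies at chr1:186828949-186988981 on the plus strand (ENSG00000116711.9). The Ctrl pair had 5 and 5 counts and the TN pair 1 and 7, while the PRTN pair had 41 and 39, the BUTN pair 39 and 26, the TNPR pair 52 and 43 and the TNBU pair 30 and 35. The 8 SCFA libraries held 26 or more counts and the other libraries 7 or fewer. The limma log2 changes against TN were 3.28, 2.96, 3.57 and 3.18 (PRTN, BUTN, TNPR and TNBU, the order used for all such sets of 4 values), with adjusted p from 0.000211 to 0.00116. The TN counts of 1 and 7 decide these sizes. Without TN replicate 1 the changes were 2.13, 1.81, 2.42 and 2.05, and without TN replicate 2 they were 4.40, 4.09, 4.69 and 4.32, all of them still called. Counting error also leaves them wide, for PRTN a ratio of counts to TN of 8.12 with an exact 95% interval from 3.93 to 19.4. TN minus Ctrl was -0.64 (SE 0.73), and its libraries overlapped those of Ctrl.

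Of the 3 genes of prostaglandin E2 synthases, none rose with the SCFAs relative to TN. PTGES, the membrane-bound microsomal synthase that is usually coupled to COX-2 (chr9:129738331-129753042, minus strand, ENSG00000148344.10), was the member nearest to a call after TNF-α alone. The Ctrl pair measured 17.5 and 17.4 CPM, the TN pair 23.9 and 26.9, the PRTN pair 22.4 and 21.9, the BUTN pair 25.1 and 25.5, the TNPR pair 21.9 and 23.2 and the TNBU pair 20.9 and 25.5. All 10 libraries given TNF-α lay above both Ctrl libraries. TN against Ctrl gave 0.54 (SE 0.10, limma adjusted p = 0.0109), a 1.46-fold difference that is under the 1.5-fold limit. Without TN replicate 1 it was 0.63 and was called. Against TN the 4 SCFA groups differed by -0.20, 0.00, -0.17 and -0.13, none of them called.

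PTGES2, which encodes a second membrane-associated synthase, fell in all 4 SCFA groups (chr9:128120693-128128462, minus strand, ENSG00000148334.14). The Ctrl pair stood at 93.9 and 91.4 CPM and the TN pair at 87.5 and 100.3, against 51.3 and 55.3 for the PRTN pair, 55.9 and 54.9 for BUTN, 60.9 and 53.3 for TNPR and 61.2 and 61.2 for TNBU. Every SCFA library lay below every other library. Its log2 changes against TN were -0.82, -0.76, -0.72 and -0.62, with limma adjusted p of 3e-05 or less. Scaled by library size alone, the changes in TNPR and TNBU were -0.54 and -0.42, under the fold limit, as was that in TNBU without TN replicate 2, at -0.53. PTGES3, the cytosolic synthase also known as the HSP90 cochaperone p23 (chr12:56663341-56688408, minus strand, ENSG00000110958.15), was the most abundant member at 505 ± 19.3 CPM in Ctrl and 552 ± 41.1 in TN. It was at 443 to 468 CPM in the SCFA groups. Its differences from TN were -0.29, -0.24, -0.31 and -0.28, each with a limma adjusted p under 0.05 and each too small for the fold limit. PTGES and PTGES3 had expected counts that were not whole in 11 and 12 of the 12 libraries, as arises where reads match several genes. Processed copies such as PTGES3P1 (4.19 to 15.35 counts) and the paralogue PTGES3L (81.08 to 125.59 counts) took few reads beside PTGES3.

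HPGD, which starts the breakdown of prostaglandins, rose with PTGS1. The gene lies at chr4:174490175-174523154 on the minus strand (ENSG00000164120.13). The Ctrl pair measured 8.38 and 8.39 CPM and the TN pair 7.59 and 6.64, and the PRTN pair reached 42.2 and 43.4, the BUTN pair 43.7 and 46.9, the TNPR pair 34.6 and 31.7 and the TNBU pair 38.1 and 32.7. No SCFA library overlapped a Ctrl or TN library, and the libraries given the SCFA after TNF-α were below those given it before. Against TN the rise was 6.02-fold for PRTN (limma log2 2.59, SE 0.12, adjusted p = 4.22e-09) and 6.37-, 4.66- and 4.96-fold for the other SCFA groups. The difference between these groups, which differ in order and in time since TNF-α, did not pass the test. TNPR minus PRTN was -0.37 (95% interval -0.55 to -0.19, limma adjusted p = 0.127) and TNBU minus BUTN was -0.36 (95% interval -0.54 to -0.18, limma adjusted p = 0.071).

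Of the prostaglandin E2 receptors, PTGER4 rose in all 4 SCFA groups, and PTGER2 was lower in all 4 and called down in 3 of them. PTGER4 (EP4, chr5:40679915-40693735, plus strand, ENSG00000171522.5) rose from 0.206 and 0.394 CPM for the Ctrl pair and 0.223 and 0.604 for the TN pair to 2.48 and 2.52 for PRTN, 1.72 and 2.10 for BUTN, 1.86 and 2.68 for TNPR and 2.47 and 1.99 for TNBU. The 8 SCFA libraries were all above the other 4. The limma log2 changes against TN were 2.69, 2.30, 2.51 and 2.51, with adjusted p from 0.000157 to 0.000679. Without TN replicate 1 they were 1.99, 1.60, 1.82 and 1.83, and without TN replicate 2 they were 3.35, 2.97, 3.18 and 3.19, all still called. The PTGER4 counts were not whole in 7 of the 12 libraries, and the annotated copy PTGER4P2-CDK2AP2P2 held 2 to 9.72 counts, so these few counts are uncertain where reads match more than 1 gene. TTC33, which overlaps PTGER4 on the other strand, had 199 to 308 counts per library, and the strand setting of the counting is not given in the sources used here, so a contribution of its reads to the PTGER4 counts was not tested.

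PTGER2 (EP2, chr14:52314305-52328598, plus strand, ENSG00000125384.6) was the more abundant receptor. The Ctrl pair held 1383 and 1196 counts, the TN pair 1182 and 1324, the PRTN pair 991 and 1046, the BUTN pair 1029 and 1051, the TNPR pair 929 and 725 and the TNBU pair 742 and 667. In CPM the means were 45.2 for Ctrl and 45.8 for TN, and 30.2, 31.3, 25.3 and 24.1 for the SCFA groups. In CPM the SCFA libraries lay below all Ctrl and TN libraries, and those with the SCFA after TNF-α were the lowest. Against TN it fell by 0.60 on the log2 scale in PRTN, 0.85 in TNPR and 0.93 in TNBU, and the -0.55 in BUTN (limma adjusted p = 0.000498) was under the fold limit. The values in PRTN and BUTN stood close to that limit. The call in PRTN was lost without PRTN replicate 1 (-0.52), without TN replicate 2 (-0.57) and with library size scaling (-0.44), and a call in BUTN appeared without BUTN replicate 1 (-0.62) or without TN replicate 1 (-0.63). Per kilobase, PTGER2 was above PTGER4 in every group, at 18.6 against 0.117 CPM per kilobase in TN and 9.76 against 0.630 in TNBU.

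**Figure D2:**
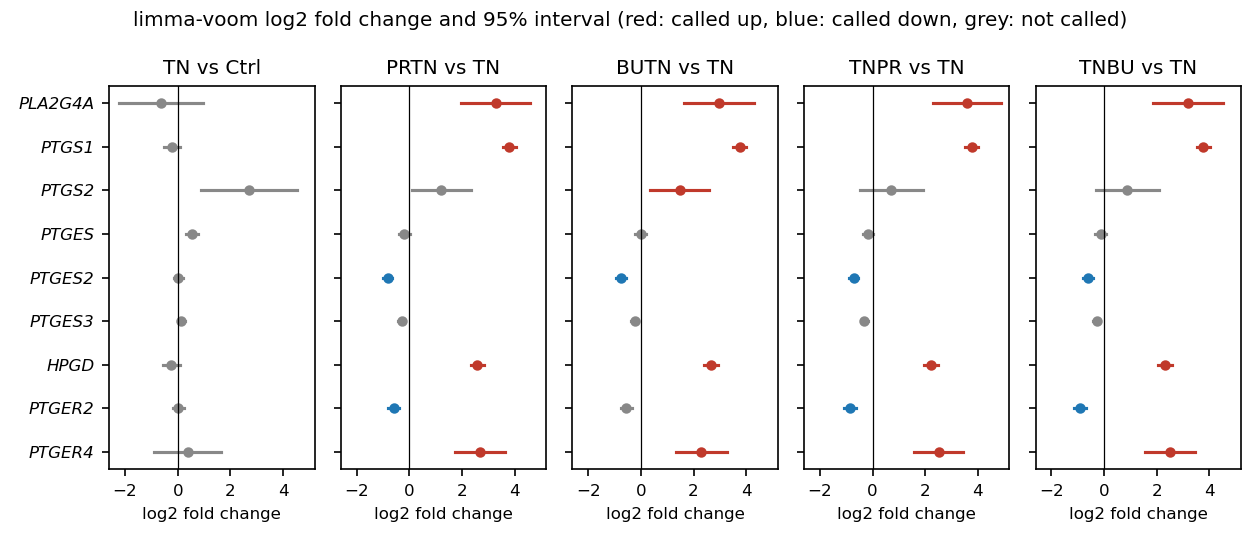
The limma-voom log2 fold change (horizontal axis) of the 9 genes in 5 comparisons, with 95% intervals. Red marks genes called up, blue genes called down and grey genes not called. The intervals of PTGS1 are narrow around 3.75 to 3.81 in the SCFA groups, and those of PLA2G4A, PTGS2 and PTGER4 are wide.

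By comparison, TNF-α alone called 0 of the 9 genes, where 1.3% of all tested genes were called. PTGES and PTGS2 had an unadjusted p under 0.05 in limma, edgeR called 0 with 2 at an unadjusted p under 0.05, and DESeq2 called 0 with 3. The median log2 change of the 9 was 0.02, beside -0.01 over all tested genes. Against TN, PRTN called 4 up and 2 down, beside 40.6% of all tested genes called in either direction (23.9% up, 16.7% down). BUTN called 5 up and 1 down (background 37.9%, with 23.1% up and 14.8% down). TNPR called 4 up and 2 down (background 41.8%, with 24.9% up and 16.9% down), and TNBU likewise 4 up and 2 down (background 41.6%, with 25.0% up and 16.5% down). The medians of the 9 were 1.22, 1.47, 0.72 and 0.88, beside medians over all tested genes of 0.09, 0.08, 0.12 and 0.09. The genes called up in all 4 groups were PLA2G4A, PTGS1, HPGD and PTGER4, and PTGES2 was called down in all 4, that is 44.4% and 11.1% of the 9 beside 18.4% and 11.9% of all tested genes. The 4 contrasts share the TN libraries. In such a wide response a share of called genes says little about a list of 9, and the sizes of the single genes carry more.

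Against untreated cells PTGS2 was called up in all 4 SCFA groups, where against TN it was called in BUTN alone. The medians of the 9 against Ctrl were 2.35, 2.32, 1.98 and 2.07, beside 0.08, 0.06, 0.09 and 0.07 over all tested genes. PRTN called 5 up and 1 down (background 39.4%, with 22.6% up and 16.9% down) and BUTN 5 up and 1 down (background 36.9%, with 22.0% up and 14.9% down). TNPR called 5 up and 2 down (background 40.4%, with 23.6% up and 16.8% down) and TNBU 5 up and 2 down (background 40.0%, with 23.6% up and 16.5% down). PTGS1 lay 12.1-fold above Ctrl in PRTN and 11.6-fold in BUTN, and HPGD 5.10-fold and 5.39-fold. PTGES2 fell by 0.80 and 0.74 on the log2 scale in these groups, and PTGER2 stood at -0.58 and -0.53, not called. Some values of PTGES2, PTGER2 and PTGES against Ctrl lay near the fold limit. PTGES2 in TNBU, at -0.60, was not called with DESeq2 (-0.57), with library size scaling (-0.46) or without Ctrl replicate 1 (-0.58), and in TNPR it was not called with library size scaling (-0.58). PTGER2 in PRTN was called with the filterByExpr filter (-0.62), with no filter (-0.60), with only the PRTN and Ctrl libraries fitted (-0.60) and without any 1 of 7 libraries (-0.60 to -0.65), and in BUTN without BUTN replicate 1 (-0.60) or Ctrl replicate 2 (-0.60). PTGES was above Ctrl in all 4 SCFA groups, at 0.35, 0.54, 0.37 and 0.41, none of them called. In BUTN, where PTGES was 1.45-fold above Ctrl, it was at 0.64 with library size scaling and called.

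Propionate and butyrate were given at different doses, 15 and 3 mM, so their groups are set side by side as the design has them and not as matched doses. PRTN against BUTN and TNPR against TNBU each called 0 of the 9 genes (0.168% and 0.00822% of all tested genes), with 0 at an unadjusted p under 0.05 in limma, edgeR and DESeq2. The TNPR and TNBU pairs differed more within themselves than the other pairs, with a chi-square per gene of 15.1 and 18.1 against 3.17 to 6.60, and with mitochondrial shares of 9.46% and 7.55% in the TNPR libraries and 5.86% and 7.57% in the TNBU libraries. The part of this in the small number of calls between them was not tested. For PTGS1, PRTN minus BUTN was 0.06 (95% interval -0.09 to 0.21) and TNPR minus TNBU 0.00 (95% interval -0.15 to 0.15). The corresponding differences for HPGD were -0.08 (95% interval -0.26 to 0.09) and -0.09 (95% interval -0.28 to 0.10). For the genes of few counts the intervals were wider and leave room for a difference, with PLA2G4A at 0.32 (95% interval -0.36 to 1.00) and PTGER4 at 0.39 (95% interval -0.16 to 0.94) in PRTN minus BUTN.

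The groups that differ in the order of SCFA and TNF-α showed no called difference either. They differ in the time since TNF-α as well, so order and time cannot be told apart. TNPR against PRTN and TNBU against BUTN called 0 of the 9 (0.16% and 0.267% of all tested genes). At an unadjusted p under 0.05 HPGD and PTGER2 appeared in both comparisons in limma, and edgeR and DESeq2 called 0 with 2 genes each at that level. PTGER2 was lower with the SCFA after TNF-α, with differences of -0.26 (95% interval -0.48 to -0.03) and -0.38 (95% interval -0.62 to -0.15). For PTGS1 the differences were -0.04 (95% interval -0.18 to 0.11) and 0.03 (95% interval -0.12 to 0.18).

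Levels per kilobase of exon placed PTGES3 first in every group, at 148 CPM per kilobase in Ctrl. In Ctrl it was followed by PTGER2 (18.3), PTGES2 (15.2), PTGES (9.21), HPGD (1.52), PTGS1 (1.31), PTGER4 (0.0847), PLA2G4A (0.0609) and PTGS2 (0.00327). Among these only PTGER4 and PLA2G4A overlapped between neighbours in that order. In TN the order was the same, and the libraries of HPGD and PTGS1, of PTGER4 and PLA2G4A and of PLA2G4A and PTGS2 overlapped. In all 4 SCFA groups PTGS1 moved from sixth to second place, at 15.3 to 15.9 CPM per kilobase, close to the level of PTGES2 in Ctrl. PTGES, PTGES2 and PTGER2 then shared the next places. The libraries of PTGER2 overlapped those of PTGES in PRTN and those of PTGES2 in TNPR and TNBU. The bottom 3 places were PTGER4, PLA2G4A and PTGS2 in every group, and PTGER4 and PLA2G4A overlapped again in TNPR.

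**Figure D3:**
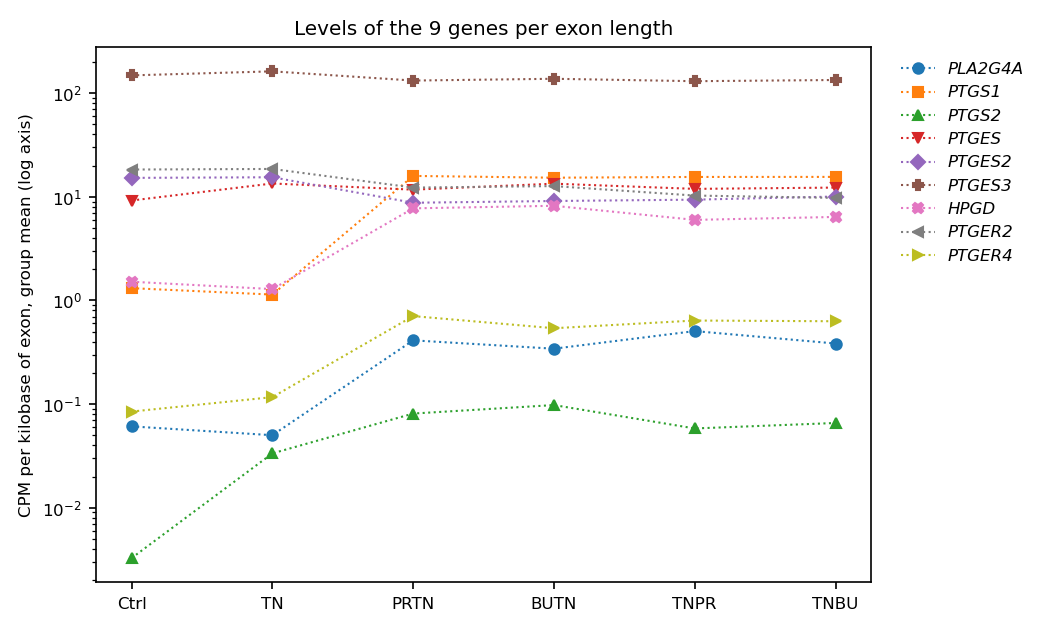
Group means in CPM per kilobase of exon on a log axis for the 9 genes, with dotted lines joining the points of a gene only to help the eye. PTGS1 moves from 1.14 in TN to between 15.3 and 15.9 in the SCFA groups, and PTGS2 is lowest in every group, at most 0.0979.

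The wider eicosanoid list held 46 genes, of which 37 were tested. TNF-α alone called 1 of them, PTGFR, beside 1.3% of all tested genes. Against TN, 18, 21, 22 and 20 were called up and 6, 5, 6 and 5 down in PRTN, BUTN, TNPR and TNBU. Of all tested genes, 23.1% to 25.0% were called up and 14.8% to 16.9% down. In all 4 groups 17 were up and 5 down (45.9% and 13.5% of 37, beside the 18.4% and 11.9% of all tested genes). The 17 include ALOX5, PTGR1 and PTGER3 with their less stable calls. The medians of the 37 were 0.87, 0.78, 0.92 and 0.91.

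All 5 genes of breakdown and transport were called in every SCFA group, 2 up and 3 down, beside 37.9% to 41.8% of all tested genes, though 3 of the 5 had a call that was lost under an alternative. SLCO2A1, the transporter that takes prostaglandins into cells for breakdown, had 137 and 144 CPM in the Ctrl pair and 146 and 153 in the TN pair, against 23.3 and 24.0 for PRTN, 33.8 and 29.6 for BUTN, 25.5 and 22.7 for TNPR and 26.7 and 23.1 for TNBU. Every SCFA library was far below every other library. It fell by 2.66, 2.24, 2.63 and 2.59 on the log2 scale against TN, with limma adjusted p of 1.19e-09 or less. ABCC4, which exports prostaglandins, fell by 0.76, 0.59, 0.99 and 0.86, and the call in BUTN was lost with DESeq2 and with other scaling (-0.57 with DESeq2, -0.44 with library size). ZADH2, a prostaglandin reductase, fell by 0.61, 0.64, 0.93 and 0.70, though with library size scaling its values in PRTN, BUTN and TNBU were -0.46, -0.49 and -0.51 and not called, and without TN replicate 1 those in PRTN and BUTN were -0.53 and -0.56. PTGR1 and PTGR2, which reduce the keto prostaglandins that HPGD makes, rose in all 4 groups, PTGR1 by 0.91, 0.89, 0.70 and 0.64 and PTGR2 by 0.97, 0.84, 1.03 and 1.01. The PTGR1 call in TNPR was lost without TN replicate 2 (0.58), and that in TNBU without TN replicate 2 (0.54) or TNBU replicate 1 (0.54). Among the enzymes of breakdown, HPGD, PTGR1 and PTGR2 were therefore called up and ZADH2 down, and both transporters were called down.

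Among 7 tested receptors outside the EP2 and EP4 genes, 5, 4, 5 and 4 were called up and 1, 1, 2 and 1 down, beside 23.1% to 25.0% up and 14.8% to 16.9% down of all tested genes. PTGFR, the receptor of prostaglandin F2α, had 8.07 and 7.81 CPM in the Ctrl pair and 13.9 and 13.2 in the TN pair, against 4.05 and 3.95 for PRTN, 5.16 and 4.45 for BUTN, 4.83 and 4.03 for TNPR and 5.04 and 4.15 for TNBU. The TN libraries were the highest and the SCFA libraries all lay below Ctrl. TNF-α raised PTGFR by 0.77 (SE 0.11, limma adjusted p = 0.00255), a call that was lost when only the Ctrl and TN libraries were fitted (adjusted p = 0.0532). The changes against TN were -1.75, -1.50, -1.61 and -1.57, and those against Ctrl -0.99, -0.73, -0.84 and -0.80, all of them called. The prostacyclin receptor PTGIR rose from 5 counts over both TN libraries to 68, 119, 51 and 59, and the prostaglandin E2 receptor PTGER3 from 3 counts to 65, 39, 68 and 57. Their ratios to TN in PRTN were 11.0 (exact 95% interval 4.50 to 35.1) and 17.6 (5.76 to 87.5). The TN libraries held 4 and 1 counts of PTGIR, and its log2 change in BUTN was 5.03 without TN replicate 1 and 3.40 without TN replicate 2 (4.25 with both), with shifts of like size in the other groups. The PTGER3 call in BUTN was lost without TN replicate 1 (limma adjusted p = 0.0924) or TN replicate 2 (limma adjusted p = 0.0730), and its value in TNBU was 3.03 without TNBU replicate 2 (3.67 with it). TBXA2R, the thromboxane receptor, rose by 1.74, 1.52, 1.66 and 1.85 from 1.77 CPM in TN. PTGER1 was called down in TNPR, from 1.11 to 0.518 CPM, and this call was lost with DESeq2 (adjusted p = 0.0879) and without TNPR replicate 2 (limma adjusted p = 0.127). PPARG, a nuclear receptor for prostaglandin metabolites, rose in PRTN and TNPR by 0.67 and 0.64, and the TNPR value was 0.53 without TNPR replicate 2. PTGDR2 was called up in all 4 groups at under 1 CPM.

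Of 7 tested genes that release arachidonic acid, 2, 4, 4 and 4 were called up and 1, 0, 0 and 0 down, beside the same shares of all tested genes. PLA2G12A, a secreted phospholipase, rose by 1.38, 1.11, 1.42 and 1.25 from 24.7 CPM in TN. PLA2G6, the calcium-independent phospholipase, rose by 1.07, 1.28, 1.34 and 1.37 from 5.50 CPM. PLA2G4C was called down in PRTN at -0.94, and this call was lost with DESeq2 (adjusted p = 0.124), with library size scaling (limma adjusted p = 0.0741), without PRTN replicate 1 (0.103), without PRTN replicate 2 (0.119) and without TN replicate 1 (0.189). Of 7 terminal synthases for other prostanoids, 2, 3, 3 and 2 were called up and 0 down, beside the same shares. CBR1, which reduces prostaglandin E2 to prostaglandin F2α, rose by 0.87, 0.68, 0.92 and 0.91. AKR1B1 rose in TNPR by 0.91 and AKR1C3 in BUTN by 0.70, the latter with near-identical paralogues that make its counts uncertain and with 0.57 without BUTN replicate 2. AKR1C3 was also called with library size scaling in PRTN (0.73), TNPR (0.69) and TNBU (0.77), with DESeq2 in PRTN (0.59) and TNBU (0.60), and with RLE factors in TNBU (0.59). AKR1B1 was called in TNBU with library size scaling (0.73) and without TNBU replicate 1 (0.63). PTGIS, the prostacyclin synthase, was called up in all 4 groups with at most 12 counts in any library.

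The lipoxygenase and leukotriene genes take arachidonic acid to other products. Of 11 tested, 7, 8, 8 and 8 were called up and 1 down in each group, beside 23.1% to 25.0% up and 14.8% to 16.9% down of all tested genes. ALOX15, the 15-lipoxygenase, went from 0 counts in Ctrl and 1 in TN to 158, 188, 129 and 158 counts per group, a ratio to TN of 128 in PRTN with an exact 95% interval from 22.7 to 5096. Its log2 change in PRTN was 5.42 without TN replicate 1 and 6.96 without TN replicate 2, with shifts of like size in the other groups. LTA4H, which makes leukotriene B4, rose by 1.38, 1.23, 1.51 and 1.40 from 69.6 CPM in TN, and ALOX5 was called at 0.99, 1.31, 1.61 and 1.90 from 0.510 CPM. The ALOX5 call in PRTN was lost with DESeq2 (adjusted p = 0.102), with filterByExpr (limma adjusted p = 0.0539), with no filter (limma adjusted p = 0.0758) and without any 1 of 9 libraries (limma adjusted p = 0.0546 to 0.263, with 0.69 without TN replicate 1). That in BUTN was lost without BUTN replicate 2 (limma adjusted p = 0.0941) or TN replicate 1 (limma adjusted p = 0.103). ALOX5AP, the helper protein of 5-lipoxygenase, was the gene that fell, by 2.07, 1.36, 1.49 and 1.33 from 8.08 CPM in TN. The leukotriene B4 receptor genes LTB4R and LTB4R2, which overlap in the genome and share reads, rose by 1.55, 1.33, 2.03 and 1.71 and by 0.97, 0.75, 1.40 and 1.31.

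**Figure D4:**
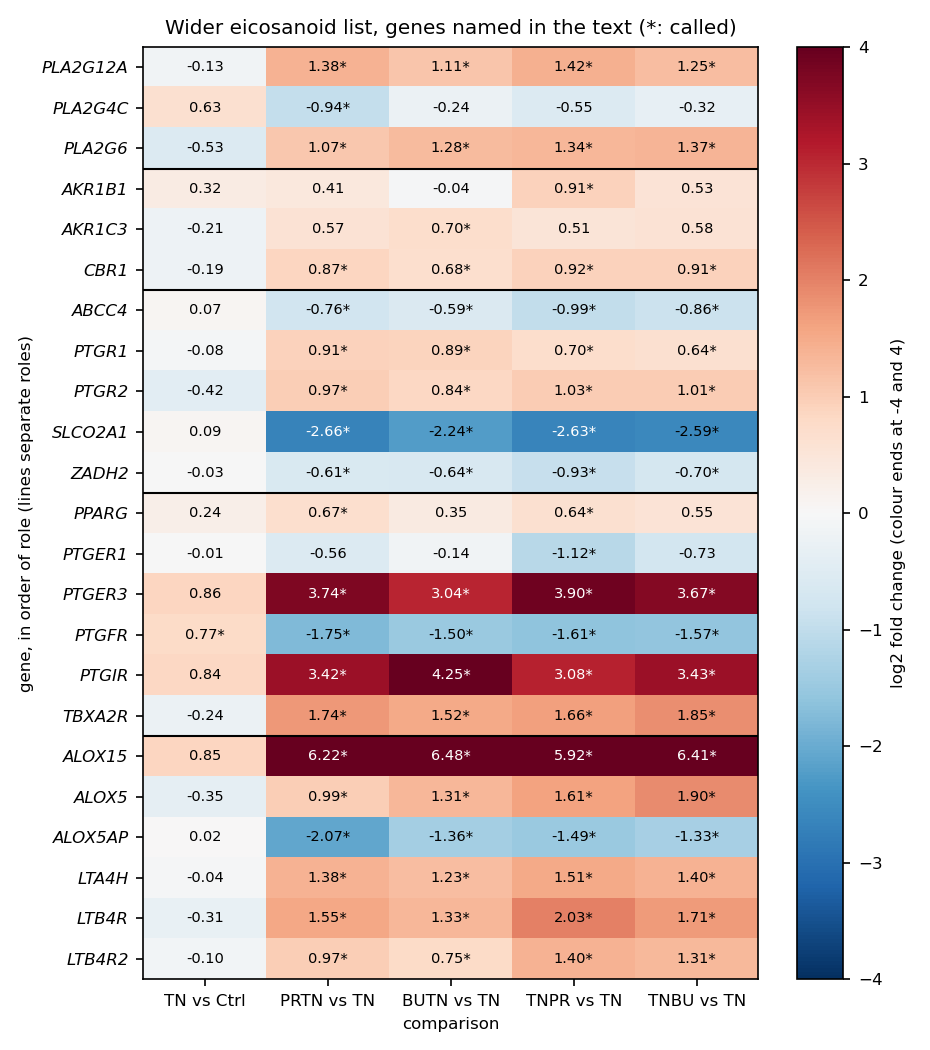
Log2 fold changes of the 23 named genes of the wider list in 5 comparisons, in order of role, with an asterisk on each call. The column of TNF-α alone has a call for PTGFR only, and the SCFA columns show SLCO2A1, PTGFR and ALOX5AP in blue and PTGER3, PTGIR and ALOX15 in the deepest red.

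The genes whose log2 CPM followed a member most closely over the 12 libraries were ENPP2 (Pearson r = 0.999), PTPRU and HSDL2 for PTGS1, ALDH7A1 (r = 0.997), HEYL and CYFIP2 for HPGD, MREG (r = 0.985), RGS17 and RNF24 for PTGS2, and RAB9A (r = 0.943), DUSP10 and TRAF1 for PTGES. For PTGES2 they were TIMM44 (r = 0.991), ACP2 and RRBP1, for PTGES3 ZNF268 (r = 0.974), SLC35G1 and BNIP2, and for PTGER2 ZNF316 (r = 0.987), F2R and CCAR2. For the rarer PTGER4 and PLA2G4A they were FGFBP1 (r = 0.990), GRIK4 and LPAR3, and DNER (r = 0.987) and S1PR3. Among the members, PTGS1 followed HPGD most closely (r = 0.987) and ran against PTGES2 (r = -0.974). The libraries fall into those with and without SCFA and the points share their groups, so these values describe the split between them. Ranked by Spearman correlation, none of the 3 genes was shared for 8 of the members, and ACP2 was shared for PTGES2.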

How the data were processed

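RNA from HK2 cells was sequenced as stranded mRNA libraries. Reads were mapped by the authors to GRCh38 with STAR (2.6.1a in the submitters' processing notes), and the deposited values are RSEM expected counts per gene of each library, with no scaling. The RSEM version and strand setting are not given in the sources used here. Of the values 19.3% were not whole, as RSEM divides reads that match several genes. Groups were taken from each library's own label, since a treatment text shared by all libraries names other agents. The study describes the replicates as biological, but nothing says whether they were separate cultures, so p-values measure the spread between these libraries.

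Genes were kept where the geometric mean of count plus 1, minus 1, was at least 1 over the 12 libraries, which removed 33936 of 58278. Counts were fitted with limma 3.58.1 (R 4.3.3), with voom weights, TMM factors from edgeR 4.0.16 and 1 mean per group over all libraries. The edgeR quasi-likelihood test and DESeq2 1.42.0, both on rounded counts, other scalings and filters, the compared groups alone, a replicate block and leaving out each library were alternatives. On counts simulated for TN vs Ctrl over 24342 genes, limma recovered 69% of 2-fold and 86% of 4-fold changes. The simulated levels were means over all 12 libraries, SCFA groups included, and only the TN libraries were changed. The shares may therefore not hold at the levels of the real Ctrl and TN libraries. The changes were placed only in genes above a minimum mean count, so these shares do not describe the rarest genes. Ratios of low counts have exact binomial intervals, which cover counting error only. Levels per kilobase used the union of exons in GENCODE v44, and promoter sequences are from RefSeq (GRCh38).

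All 9 members were described. Of the wider list, genes called in TN vs Ctrl or in an SCFA group vs TN were named where their highest group had at least 1 CPM, and other genes named from it (PTGDR2 and PTGIS) were chosen after their values were seen. Likeness names the 3 genes of highest Pearson r, without read-through and clone-based genes. Some genes that these rules select are not reported here. The members and lists were chosen with earlier results of these data known. Same-numbered libraries did not deviate together (r from -0.0347 to 0.0658 over 15 pairs of groups), so the numbers were not taken as pairs.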

Additional observations from a re-analysis of the deposited data

How the results depend on the processing

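The number of members called kept within 1.5 times of its value in every comparison and alternative except 1. TNF-α alone called 0 members, and 1 (PTGES) without TN replicate 1, so that leaving out a replicate gave 0 to 1. No called gene reversed its direction. With a replicate block, 0 members were called for TNF-α alone and 6 against TN in each SCFA group, as without it. Library size scaling moved the median log2 change of all tested genes against TN to between 0.23 and 0.29, and the share of higher calls from 60.9% to 71.2% for BUTN, from 59.6% to 69.8% for TNPR and from 60.2% to 72.0% for TNBU. For TNF-α alone that share went from 58.9% to 44.3%.

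Calls over all tested genes were less stable where they were few. TNF-α alone gave 316 calls, 91 with only the Ctrl and TN libraries fitted, 175 without Ctrl replicate 1, 210 without Ctrl replicate 2 and 187 without TN replicate 1. PRTN against BUTN gave 41, with 27 under DESeq2, 27 under the replicate block, 75 with no filter, 178 with the compared groups alone and 3 to 74 without a replicate. TNPR against PRTN gave 39, with 25 under edgeR, 7 with the compared groups alone and 7 to 74 without a replicate. TNBU against BUTN gave 65, with 4 when these groups were fitted alone and 10 to 308 without a replicate. TNPR against TNBU gave 2, with 9 under DESeq2, 13 with no filter, 0 with these groups alone and 4 without TNBU replicate 1. The cause was not tested. Depth limits PTGS2, PLA2G4A and PTGER4, which had few counts in Ctrl and TN.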
